A study of Mus musculus with 6 samples.

Results

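Osteoclasts are the bone-resorbing cells that lie beneath and beside articular cartilage, in the subchondral bone. They form from myeloid precursors when RANKL engages its receptor RANK while CSF1 signals through CSF1R, and osteoprotegerin acts as a soluble decoy for RANKL. Downstream of RANK, the transcription factor NFATc1 switches on the genes for cell fusion, proton pumping and matrix digestion, and the finished multinucleated cell seals onto bone, acidifies the space under it and releases cathepsin K. The genes described here were 10 of the 34709 in the deposited table, taken by gene name. They were Tnfrsf11a (RANK) and Calcr (calcitonin receptor) as receptors, Oscar as a co-stimulatory receptor, Nfatc1 as the transcription factor, Dcstamp and Ocstamp for cell fusion, Atp6v0d2 and Tcirg1 as proton pump subunits, and Acp5 (tartrate-resistant acid phosphatase, TRAP) and Ctsk (cathepsin K) as the secreted enzymes. All 10 passed the filter, a mean of 0.5 FPKM or more (fragments per kilobase, relative to the size of the library), which 15373 genes passed. In the KEGG annotation of the deposited table, 5 of the 10 carried the term osteoclast differentiation, namely Ctsk, Acp5, Nfatc1, Tnfrsf11a and Calcr.

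RNA-seq was performed on articular cartilage of knockout (KO) mice and wildtype (WT) mice, with 3 libraries labelled for each group and no treatment in either. By the names of the data columns and the methods of the study, the mice were 18 months old, and the methods give a commercial C57BL/6J KO line, with male littermates for the aged KO and WT animals. The labels do not say whether 1 library is 1 mouse, so the p-values measure the spread between these libraries, which may be technical. Total counts ran from 52268311 to 63331135 per library, and 3 counts, the limit that a count of 0 allows, came to at most 0.0574 CPM (counts scaled to the library total), an error of counting alone.

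KO replicates 2 and 3 were more alike than any other pair of libraries. Over genes, their median squared difference was 5.77 times that of Poisson sampling, against 23.8 to 85.2 times for the other 14 pairs. A count was not taken to be 1 read pair, so these multiples serve only to compare pairs. KO replicates 2 and 3 were averaged and counted as 1 sample, so that the comparison held 2 KO and 3 WT samples. The values of the 6 libraries as labelled are given where they differ. WT replicate 1 stood apart for the genes described here, and results are given with and without it.

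The tissue was checked against markers. Of 12 chondrocyte markers all were listed above 0 in at least 1 library, led by Chad and Comp, with Col2a1 at 12.4 to 21.3 FPKM and Acan at 13.2 to 22.8 FPKM, whereas Matn1 and Matn3 were each at 0 in some libraries and reached only 0.151 and 0.202 FPKM. The leading red cell and neutrophil markers were far higher, since Hbb-bs, a beta globin, ranged from 9546 to 45387 FPKM and S100a9, a neutrophil protein, from 11637 to 27817 FPKM. Each library thus held transcripts of blood and marrow cells beside those of chondrocytes. In such bulk samples, fewer cells of a type and less RNA per cell cannot be told apart.

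The promoter regions of 4 genes are shown. Ctsk, Acp5 and Oscar were all highest in the same WT library by more than 2 times (described next) and Tcirg1 was not. Tnfrsf11a also passed this limit, at 2.004 times, and its window is described below but not shown. Ocstamp passed it too, at 2.76 times, but had no RefSeq window at hand. They are the 250 bases upstream of the outermost RefSeq start site (GRCm38.p6), 5′ to 3′ on the strand of the gene. Capitals mark the letters GAGGAAG (the core bound by PU.1, a myeloid factor) or GGAAAA (the core bound by NFAT factors) on either strand.
Ctsk, chr3:95498960-95499209, plus strand: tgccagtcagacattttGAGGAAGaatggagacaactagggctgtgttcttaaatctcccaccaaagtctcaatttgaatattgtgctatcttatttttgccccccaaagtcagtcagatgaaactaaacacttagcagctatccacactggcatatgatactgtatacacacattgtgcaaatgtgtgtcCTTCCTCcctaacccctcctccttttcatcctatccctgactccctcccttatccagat
Acp5, chr9:22135747-22135996, minus strand: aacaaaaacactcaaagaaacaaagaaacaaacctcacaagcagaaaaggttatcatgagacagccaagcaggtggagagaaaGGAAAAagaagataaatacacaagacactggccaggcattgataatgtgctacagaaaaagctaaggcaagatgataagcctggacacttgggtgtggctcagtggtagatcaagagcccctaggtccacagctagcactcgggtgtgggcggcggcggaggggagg
Oscar, chr7:3616158-3616407, minus strand: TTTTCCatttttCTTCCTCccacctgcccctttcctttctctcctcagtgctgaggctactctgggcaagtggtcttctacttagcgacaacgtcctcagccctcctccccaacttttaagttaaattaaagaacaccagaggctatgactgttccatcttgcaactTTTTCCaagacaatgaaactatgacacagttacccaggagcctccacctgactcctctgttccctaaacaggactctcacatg
Tcirg1, chr19:3907134-3907383, minus strand: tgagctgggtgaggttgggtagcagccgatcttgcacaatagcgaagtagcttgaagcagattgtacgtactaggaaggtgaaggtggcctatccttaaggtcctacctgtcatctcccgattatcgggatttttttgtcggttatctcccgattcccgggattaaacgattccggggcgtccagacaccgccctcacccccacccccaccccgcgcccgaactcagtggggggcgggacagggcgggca
None of these 4 windows overlapped an annotated exon. The Ctsk window held 2 matches to the PU.1 letters. Oscar held 1 match to them and 2 to the NFAT letters, and Acp5 held 1 match to the NFAT letters. This Tcirg1 window held none, although a RefSeq window at an inner start site of Tcirg1 held 1 match to the NFAT letters. The Tnfrsf11a window, which overlapped 1 annotated exon, held neither the PU.1 nor the NFAT letters, at a GC content of 73.6%. These windows were picked by the level in that WT library, and a link between motif matches and level was not tested. GC content was 43.2% for Ctsk, 48.0% for Acp5, 47.2% for Oscar and 58.0% for Tcirg1, against a median of 52.4% over all windows of this kind. Of 32851 such windows, 10.6% held the PU.1 letters and 20.4% the NFAT letters, so that a match is common and only describes the sequence. RefSeq windows were at hand for 6 of the 10 genes, 11 windows in all, and neither the AP-1 letters TGANTCA (6.75% of all windows) nor the E-box CACGTG (6.02%), both searched on both strands, was found in any of the 11.

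The expressed level of the 10 genes was examined first. Enzymes were the highest and receptors and fusion genes the lowest, over a wide range in the same libraries. By mean FPKM, the order was Ctsk, Acp5, Tcirg1, Atp6v0d2, Nfatc1, Oscar, Dcstamp, Tnfrsf11a, Ocstamp and Calcr. Each gene was above the next one in 6 of 6 libraries, except that Ocstamp was above Calcr in 5 of 6. The ranges over libraries of all neighbours overlapped apart from those of Acp5 and Tcirg1.

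**Figure D1:**
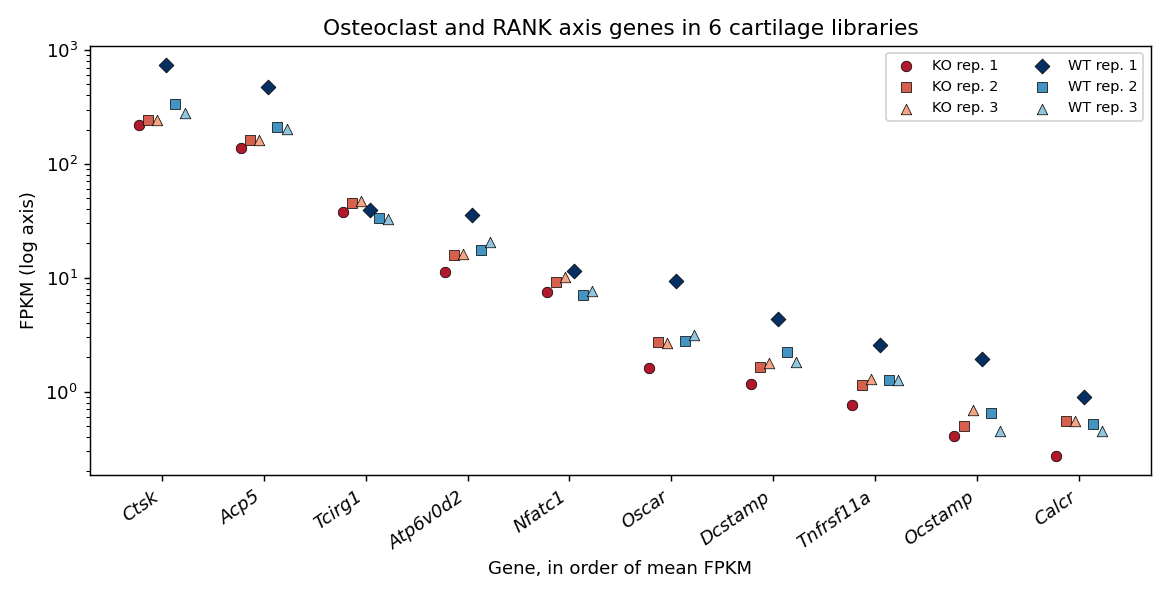
FPKM (log axis) of the 10 osteoclast and RANK axis genes in each of the 6 libraries, KO in red and WT in blue, with 1 point per library. WT replicate 1 is the highest point for every gene except Tcirg1, and KO replicate 1 is the lowest for 8 of the 10.

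Ctsk encodes cathepsin K, the collagen-digesting protease of the resorption space (chromosome 3, 95499256 to 95509362, plus strand, GRCm38). Its level was 219, 243 and 242 FPKM in KO replicates 1, 2 and 3 and 731, 333 and 278 FPKM in WT replicates 1, 2 and 3. The groups did not overlap, but WT replicate 1 lay 2.20 times above the next highest library. The KO mean of 231 ± 16.5 FPKM (SD, n = 2) compared with a WT mean of 447 ± 248 FPKM (SD, n = 3), and the log2 difference of KO minus WT was -0.92 (SE 0.396, 95% confidence interval -1.86 to 0.0086; edgeR, adjusted p = 0.370).

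Acp5 encodes TRAP, the classical histochemical marker of osteoclasts (chromosome 9, 22126727 to 22135711, minus strand). It was measured at 137, 162 and 161 FPKM in the KO libraries and at 473, 212 and 201 FPKM in the WT libraries. Its pattern was that of Ctsk, with groups apart and WT replicate 1 at 2.23 times the next library. The means were 149 ± 16.9 FPKM (SD, n = 2) and 295 ± 154 FPKM (SD, n = 3), with a log2 difference of -0.96 (SE 0.371, interval -1.83 to -0.085; edgeR, adjusted p = 0.320). An annotated gene on the opposite strand, 6530413G14Rik, overlaps Acp5. The libraries kept the strand, but whether the counting used it is not given in the sources used here, so reads of this pair may be shared.

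The proton pump subunits parted ways. Atp6v0d2, a subunit of the V-ATPase membrane sector that is prominent in osteoclasts (chromosome 4, 19876841 to 19922605, minus strand), was at 11.1, 15.7 and 16.2 FPKM in KO and at 35.8, 17.3 and 20.4 FPKM in WT. Every KO library was below every WT library. The means of 13.6 ± 3.43 (SD, n = 2) and 24.5 ± 9.91 FPKM (SD, n = 3) gave a log2 difference of -0.83 (SE 0.300, interval -1.54 to -0.13; edgeR, adjusted p = 0.289). Tcirg1, the a3 subunit of the same pump and a gene mutated in osteopetrosis (chromosome 19, 3896050 to 3907112, minus strand), was at 37.6, 45.3 and 47.0 FPKM in KO and at 39.2, 33.7 and 33.1 FPKM in WT. It was the only member of the 10 with a mean higher in KO, at 41.9 ± 6.04 (SD, n = 2) against 35.3 ± 3.34 FPKM (SD, n = 3), and its groups overlapped through KO replicate 1 and WT replicate 1. The log2 difference was 0.26 (SE 0.134, interval -0.054 to 0.58; edgeR, adjusted p = 0.464).

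Tnfrsf11a, the receptor RANK itself (chromosome 1, 105780718 to 105847981, plus strand), was low, at 0.761, 1.14 and 1.29 FPKM in KO and 2.59, 1.26 and 1.26 FPKM in WT. Apart from WT replicate 1 and KO replicate 1, the other 4 libraries lay close together, and KO replicate 3 was above WT replicates 2 and 3. The means were 0.989 ± 0.322 (SD, n = 2) and 1.70 ± 0.765 FPKM (SD, n = 3), and the log2 difference was -0.76 (SE 0.369, interval -1.63 to 0.11; edgeR, adjusted p = 0.435). Calcr, through which calcitonin halts resorption (chromosome 6, 3685680 to 3764714, minus strand), was at 0.274, 0.553 and 0.555 FPKM in KO and 0.895, 0.516 and 0.447 FPKM in WT. It rested on 63 to 232 counts per library, its groups overlapped, and its log2 difference was -0.57 (SE 0.431, interval -1.58 to 0.45; edgeR, adjusted p = 0.654).

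Oscar, which pairs with the FcR gamma chain to co-stimulate osteoclast precursors (chromosome 7, 3609813 to 3616157, minus strand), varied most of all. It was at 1.60, 2.70 and 2.69 FPKM in KO and at 9.37, 2.77 and 3.13 FPKM in WT, a 5.87-fold range. Its groups were apart, though KO replicate 2 and WT replicate 2 differed by little. The log2 difference of -1.22 was the largest in size of the 10 and had the second largest standard error (SE 0.551, interval -2.51 to 0.080; edgeR, adjusted p = 0.400).

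Nfatc1, the transcription factor that commits precursors to the osteoclast fate, was at 7.48, 9.15 and 10.05 FPKM in KO and 11.4, 7.08 and 7.62 FPKM in WT. The groups overlapped fully and the means, 8.54 ± 1.503 (SD, n = 2) and 8.70 ± 2.35 FPKM (SD, n = 3), were close. Its log2 difference was -0.0063 (SE 0.205, interval -0.49 to 0.48; edgeR, adjusted p = 0.995), an interval that leaves room for a change of either sign. The antisense gene Gm50211 overlaps it, with the same limit as for Acp5.

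Both fusion genes were low, and the standard error was larger for Ocstamp than for Dcstamp. Dcstamp, a membrane protein required for precursors to fuse (chromosome 15, 39745930 to 39760938, plus strand), was at 1.16, 1.63 and 1.77 FPKM in KO and 4.36, 2.22 and 1.81 FPKM in WT, with KO replicate 3 just under WT replicate 3. Its log2 difference was -0.94 (SE 0.399, interval -1.88 to -0.0041; edgeR, adjusted p = 0.363). Ocstamp, which acts beside it in fusion (chromosome 2, 165393760 to 165400405, minus strand), was at 0.405, 0.497 and 0.695 FPKM in KO and 1.92, 0.644 and 0.453 FPKM in WT. Its groups overlapped, and its log2 difference of -0.98 (SE 0.607, interval -2.41 to 0.45; edgeR, adjusted p = 0.566) rested on WT replicate 1.

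Across the whole list, no gene was called, that is, none had an adjusted p-value below 0.05. The quasi-likelihood test of edgeR called 0 of the 10 and 0% of all tested genes on the 5 samples, and 0 of the 10 but 3.71% of tested genes on the 6 libraries as labelled. DESeq2 called 0 of the 10 and 5.72% of tested genes, and both limma fits called 0 of the 10. At an unadjusted p-value under 0.05, edgeR had 3 of the 10 lower in KO (Acp5, Atp6v0d2 and Dcstamp) against 6.07% of all tested genes, and DESeq2 had 6 in either direction against 16.1%. The lowest adjusted p-value of any fit was 0.0818, for Acp5 by DESeq2, where the fits of that gene ranged up to 0.556. By sign, 9 of the 10 had a log2 difference under 0, against 52.5% of tested genes, and the median was -0.88 against -0.016 over all tested genes. On the 5 samples the groups did not overlap for 6 of the 10, all lower in KO (Ctsk, Acp5, Atp6v0d2, Oscar, Dcstamp and Tnfrsf11a), against 16% of all tested genes, and on the 6 libraries for 5 of the 10 against 13.7%. None was higher in KO without overlap, where 12.5% of tested genes were on the 5 samples.

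**Figure D2:**
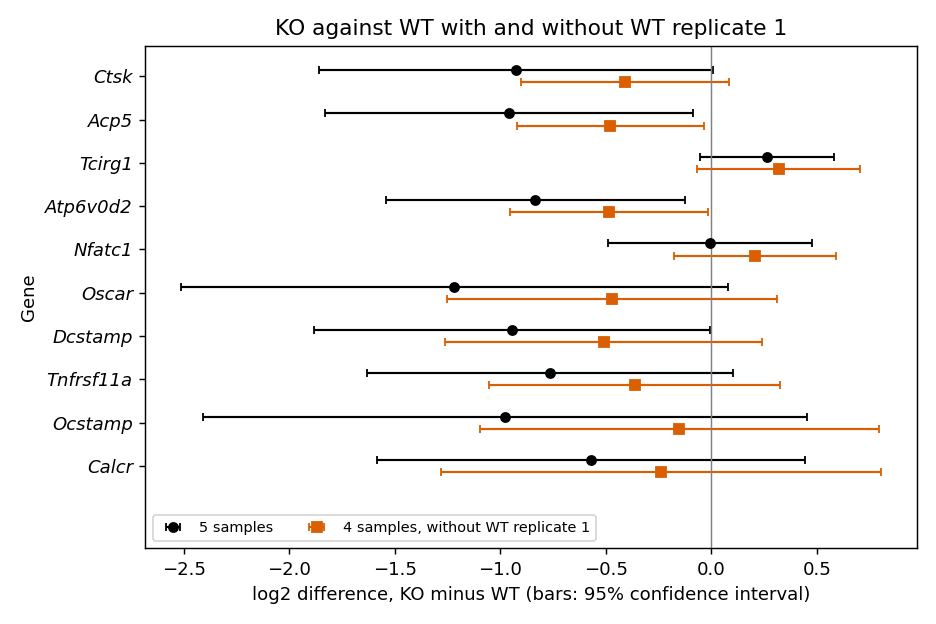
Log2 difference of KO minus WT (x axis, bars are 95% confidence intervals from edgeR) for each gene, over all 5 samples in black and over the 4 samples without WT replicate 1 in orange. Without WT replicate 1 the 8 estimates of -0.57 and below move toward 0, to between -0.51 and -0.15, while those of Tcirg1 and Nfatc1 move up to 0.32 and 0.21.

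Much of the spread came from 1 library. Of the 10 genes, 9 were highest in WT replicate 1, as were 25.1% of all tested genes, and Tcirg1 was highest in KO replicate 3. Relative to the mean of WT replicates 2 and 3, WT replicate 1 was 3.50 times as high for Ocstamp, 3.17 for Oscar, 2.40 for Ctsk, 2.29 for Acp5, 2.16 for Dcstamp and 2.05 for Tnfrsf11a. The ratio was 1.899 for Atp6v0d2, 1.86 for Calcr, 1.55 for Nfatc1 and 1.17 for Tcirg1. The median of these ratios was 2.11, against 1.05 over all tested genes. A ratio of at least 1.5 was found in 9 of the 10 and in 8.19% of tested genes, and a ratio of at least 2 in 6 of the 10 and in 2.42% of tested genes. At the other end, KO replicate 1 was lowest for 8 of the 10, against 26.2% of tested genes.

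Without WT replicate 1, the median log2 difference of the 10 genes was -0.39 instead of -0.88. Acp5 was then at -0.48 (edgeR, unadjusted p = 0.0384, adjusted p = 0.5002), Atp6v0d2 at -0.49 (edgeR, unadjusted p = 0.0442, adjusted p = 0.516), Ctsk at -0.41 (adjusted p = 0.613), Dcstamp at -0.51 (adjusted p = 0.696) and Oscar at -0.47 (adjusted p = 0.747). Acp5 and Atp6v0d2, 2 of the 10, had an unadjusted p-value under 0.05 and were lower in KO, against 4.18% of tested genes. Both were lower in KO with and without this library, by a smaller difference without it. Tnfrsf11a was at -0.36, Calcr at -0.24 and Ocstamp at -0.15, each with an interval that spans 0, and Nfatc1 stood at 0.21.

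Markers of other cells of bone and marrow were set beside this. The 11 osteoblast and osteocyte markers had 7 highest in WT replicate 1, where 25.1% of all tested genes were highest. Their summed level was 2109 FPKM there and 2052 FPKM in WT replicate 2, but 774 FPKM in WT replicate 3 and 1005 to 1123 FPKM in KO. Bglap2 and Bglap, osteocalcin genes of osteoblasts, led that list. The 12 monocyte and macrophage markers, led by Lyz2 and C1qb and sharing Csf1r with the pathway list below, had 2 highest in WT replicate 1. They summed to 5530 to 7621 FPKM in KO and 3447 to 5382 FPKM in WT, but Lyz2, a lysozyme gene that neutrophils express too, made up 87.9% to 95.2% of each sum. The other 11 summed to 368, 297 and 295 FPKM in KO and 416, 351 and 452 FPKM in WT, so that the groups overlapped and most KO values were below the WT values. Mrc1, Cd163 and Vsig4, receptors of resident macrophages, were named after their values were seen. In these 3 of the 12 every KO library was below every WT library, against 13.7% of tested genes. In 1 of the 12, Lyz2, every KO library was above every WT library, against 11.3% of tested genes, and the rest overlapped. Neutrophil markers (12, led by S100a9 and S100a8) summed to 51089 to 62517 FPKM in KO and 27064 to 43829 FPKM in WT. B cell markers (9, led by Cd79a and Cd79b) summed to 86.7 to 138 FPKM in KO and 279 to 311 FPKM in WT, and the 9 listed erythroid markers (led by Hbb-bs and Hbb-bt) to 24950 to 60714 FPKM and 71704 to 108568 FPKM. T and NK cell markers (6, led by Nkg7 and Trbc2) summed to 100.2 to 116 FPKM in KO and 72.0 to 91.7 FPKM in WT, of which Nkg7 made up 66.3% to 87.9%. Without Nkg7 the other 5 summed to 13.7 to 22.6 FPKM in KO and 19.2 to 30.9 FPKM in WT. In WT replicate 1, 5 of the 6 were highest, against 25.1% of tested genes, with a median over the list of 1.48 times the mean of WT replicates 2 and 3. Muscle markers (5, led by Mylpf and Acta1) reached 127 FPKM in KO replicate 1 and 239 FPKM in WT replicate 3. Chondrocyte markers summed to 200.03 to 409 FPKM in KO and 210 to 266 FPKM in WT. The neutrophil, B cell and erythroid sums did not overlap between the groups, with or without the highest gene of each list, whereas the separation of the monocyte and macrophage sums and of the T and NK cell sums was lost without Lyz2 and Nkg7. By gene, every KO library was below every WT library in 9 of 9 B cell and 9 of 9 erythroid markers, against 13.7% of tested genes. Every KO library was above every WT library in 11 of 12 neutrophil markers, against 11.3%. No listed marker was at 0 in all libraries, and the part of these cells in the values of the osteoclast genes was not tested.

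The genes were then compared with each other within a library. The FPKM ratio of Ctsk to Acp5 was 1.60, 1.51 and 1.51 in the KO libraries and 1.55, 1.57 and 1.38 in the WT libraries. It spanned 1.16-fold, while Ctsk alone spanned 3.33-fold and Acp5 3.45-fold. Dcstamp relative to Acp5 spanned 1.302-fold and Atp6v0d2 relative to Acp5 1.33-fold. These 4 genes, named after their spans were seen, kept nearly the same proportions in the highest and the lowest library. Relative to Acp5, Tnfrsf11a spanned 1.47-fold, Oscar 1.70-fold, Calcr 1.82-fold and Ocstamp, the other fusion gene, 1.93-fold. Tcirg1 relative to Acp5 was at 0.275, 0.281 and 0.293 in KO against 0.0828, 0.159 and 0.164 in WT, a 3.54-fold span. Nfatc1 relative to Acp5 was 0.0545, 0.0566 and 0.0626 in KO against 0.0241, 0.0334 and 0.0378 in WT. For both genes every KO library was above every WT library, with WT replicate 1 the lowest, and Tcirg1 relative to the other pump subunit, Atp6v0d2, showed the same order, at 3.38, 2.88 and 2.90 in KO and 1.09, 1.94 and 1.62 in WT. Acp5 and Atp6v0d2 were themselves lower in every KO library than in every WT library, and highest in WT replicate 1. Dividing a gene of even level by either would give this same order, so the order need not come from Tcirg1 or Nfatc1. These ratios are descriptions and were not tested.

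**Figure D3:**
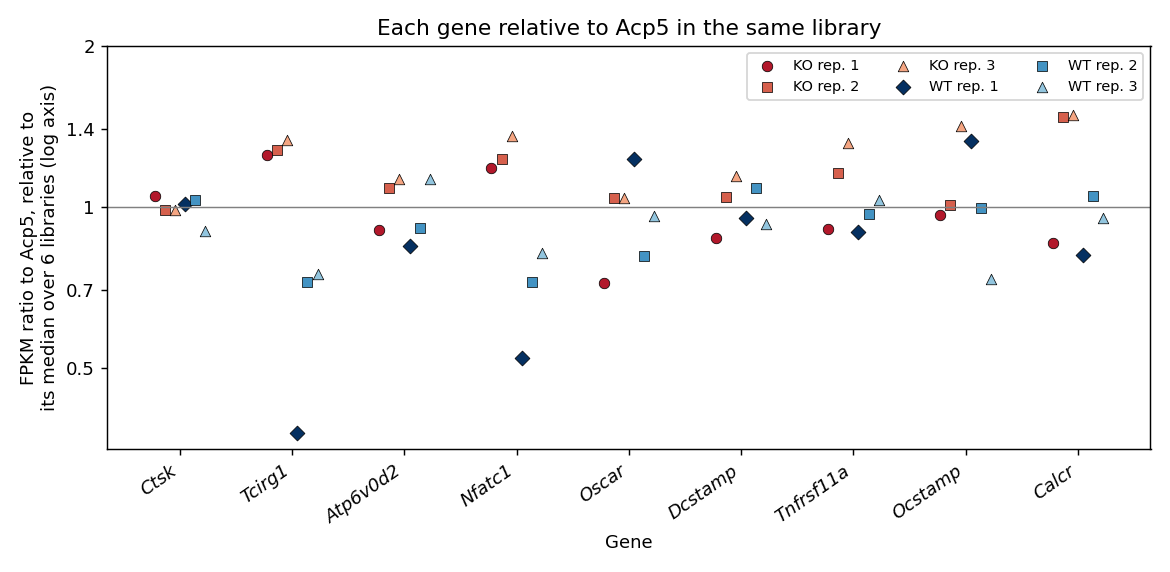
FPKM of 9 genes divided by that of Acp5 in the same library, relative to the median of that ratio over the 6 libraries (log axis, 1 point per library, KO in red, WT in blue). Ctsk stays near 1 in all libraries with a 1.16-fold span, whereas for Tcirg1 and Nfatc1 the KO points lie above 1 and the WT points below it. Acp5 itself was lower in every KO library, so a gene of even level would show this order too.

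Genes elsewhere in the table with the most similar profile were sought by the root mean square distance of centred log2 CPM to the mean profile of the 10, over 6 libraries and 7609 genes whose mean was 5 FPKM or more. The nearest was Tnc (tenascin-C, a matrix glycoprotein) at a distance of 0.119, with 27.9, 31.7 and 31.4 FPKM in KO and 66.0, 30.8 and 31.1 FPKM in WT. Slc37a2 (a sugar phosphate transporter, 0.121), Nrp2 (a neuropilin receptor, 0.131), Bgn (biglycan, a matrix proteoglycan, 0.133) and Col5a1 (a fibrillar collagen chain, 0.136) followed. WT replicate 1 was the highest library in each of the 5, for example 14.7 FPKM of Slc37a2 against 4.96 to 8.15 FPKM elsewhere. This follows from the selection, since the mean profile of the 10 peaks in that library.

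The signals that act on these genes were examined with a list of 53 further RANK pathway genes, of which 52 were tested and 1, Camk4, was below the filter. By edgeR, 0 of the 52 were called, 10 were higher and 4 lower in KO at an unadjusted p-value under 0.05 (7.63% and 6.07% of tested genes), and the median log2 difference was 0.032. The list as a whole thus did not share the negative median of the 10 genes. With the 6 libraries as labelled, 3 of the 52 were called, all higher in KO (Spi1, Adam8 and Pirb), against 2.46% of tested genes. KO replicates 2 and 3 enter that fit as separate samples. DESeq2 on the 5 samples called 5 of the 52, against 5.72% of tested genes.

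Among the ligands, Tnfsf11 (RANKL) was at 1.80, 1.28 and 1.37 FPKM in KO and 1.89, 1.36 and 1.43 FPKM in WT, a log2 difference of 0.033 (interval -0.65 to 0.72; edgeR, adjusted p = 0.984). Tnfrsf11b (osteoprotegerin), which blocks RANKL, was far higher and divided the KO libraries, at 45.7, 14.1 and 13.1 FPKM in KO against 21.4, 36.0 and 32.3 FPKM in WT (log2 difference 0.028, interval -1.14 to 1.19). The FPKM ratio of RANKL to osteoprotegerin was accordingly 0.0395, 0.0905 and 0.104 in KO and 0.0886, 0.0378 and 0.0441 in WT. WT replicate 1 and KO replicates 2 and 3 were on the high side, KO replicate 1 and WT replicates 2 and 3 on the low side, so this ratio did not follow the genotype labels. Csf1, the survival factor of the lineage, was at 7.63, 6.99 and 6.74 FPKM in KO and 14.4, 8.57 and 8.43 FPKM in WT. The groups of Csf1 were apart, with a log2 difference of -0.50 (edgeR, adjusted p = 0.438) and -0.23 without WT replicate 1. Il34, the other ligand of CSF1R, was at 5.30, 3.79 and 3.55 FPKM in KO and 7.42, 7.40 and 7.11 FPKM in WT. It showed a tight WT group, with a log2 difference of -0.67 (SE 0.229; edgeR, unadjusted p = 0.0212, adjusted p = 0.266) and of -0.68 without WT replicate 1. Their receptor Csf1r was at 22.9, 35.6 and 34.6 FPKM in KO and 38.7, 20.9 and 27.5 FPKM in WT, with a log2 difference of 0.016. The FPKM ratio of Tnfrsf11a to Csf1r was 0.0332, 0.0321 and 0.0373 in KO and 0.0667, 0.0600 and 0.0460 in WT. The groups did not overlap in this ratio, which was not tested. Csf1r is also on the list of monocyte and macrophage markers, so the ratio is not a level per osteoclast.

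Of 13 tested signal transduction genes, 10 had a log2 difference above 0 and 3 below, against 52.5% of all tested genes below. By edgeR, 2 of the 13 had an unadjusted p-value under 0.05, both higher in KO, against 7.63% of tested genes. Traf6, the adaptor that RANK recruits, was at 3.94, 5.03 and 5.08 FPKM in KO and 5.03, 3.52 and 3.85 FPKM in WT, a log2 difference of 0.14 (edgeR, adjusted p = 0.819). Traf3, a brake on the alternative NF-kappaB route, had a log2 difference of 0.37 (adjusted p = 0.329), Mapk14 (the kinase p38 alpha) one of 0.40 (adjusted p = 0.332) and Nfkb1 (the NF-kappaB subunit p50) one of 0.32 (adjusted p = 0.374).

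Of 9 co-stimulation genes, 6 had a difference above 0 and 3 below, against 52.5% of tested genes below. Pirb, an inhibitory immunoglobulin-like receptor, was at 64.2, 99.3 and 100.4 FPKM in KO and 43.3, 44.2 and 46.4 FPKM in WT. All KO libraries were above all WT libraries by a wide margin, and the log2 difference was 0.89 (SE 0.182; edgeR, unadjusted p = 0.00172, adjusted p = 0.166; adjusted p = 0.0358 with the 6 libraries). Fcer1g, the FcR gamma chain through which Oscar signals, had 0.50 (adjusted p = 0.202) and Plcg2, the phospholipase that raises calcium, 0.49 (adjusted p = 0.361). Oscar and its partner chain thus had differences of opposite sign, neither past the threshold by edgeR on the 5 samples, although DESeq2 called Fcer1g. The neutrophil sums given above were higher in all KO libraries too, and their part in the Fcer1g and Pirb values was not tested.

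Of 9 transcription factors and repressors, 6 had a difference above 0 and 3 below, against 52.5% of tested genes below. Spi1, which encodes the myeloid factor PU.1, was at 71.8, 89.1 and 90.2 FPKM in KO and 44.6, 51.5 and 50.7 FPKM in WT, a log2 difference of 0.73 (SE 0.145; edgeR, unadjusted p = 0.0014, adjusted p = 0.166; adjusted p = 0.0358 with the 6 libraries). PU.1 is used throughout the myeloid lineage, and the neutrophil sums given above were higher in the KO libraries too, while macrophage markers other than Lyz2 were not. Their part in the Spi1 value was not tested. Fos, a partner of NFATc1, was at 35.8, 16.6 and 14.7 FPKM in KO and 12.1, 11.9 and 17.0 FPKM in WT, with KO replicate 1 far above the rest and WT replicate 3 above KO replicates 2 and 3. Its log2 difference was 0.95 (edgeR, adjusted p = 0.305).

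Of 16 genes for attachment, fusion and resorption, 5 had a difference above 0 and 11 below, against 52.5% of tested genes below. Adam8, a surface protease also made by neutrophils, was at 32.0, 49.3 and 49.9 FPKM in KO and 22.8, 23.8 and 26.0 FPKM in WT (log2 difference 0.76, SE 0.176; edgeR, adjusted p = 0.171; adjusted p = 0.0396 with the 6 libraries). Car2, the carbonic anhydrase that supplies protons to the osteoclast pump and is abundant in red cells too, was at 382, 297 and 297 FPKM in KO and 561, 532 and 664 FPKM in WT. Its groups were apart, with a log2 difference of -0.76 (SE 0.240; edgeR, unadjusted p = 0.0154, adjusted p = 0.242), and the erythroid sums given above were also lower in all KO libraries, whose part was not tested. Src, the kinase of the ruffled border, had a log2 difference of -0.40 (adjusted p = 0.278).

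**Figure D4:**
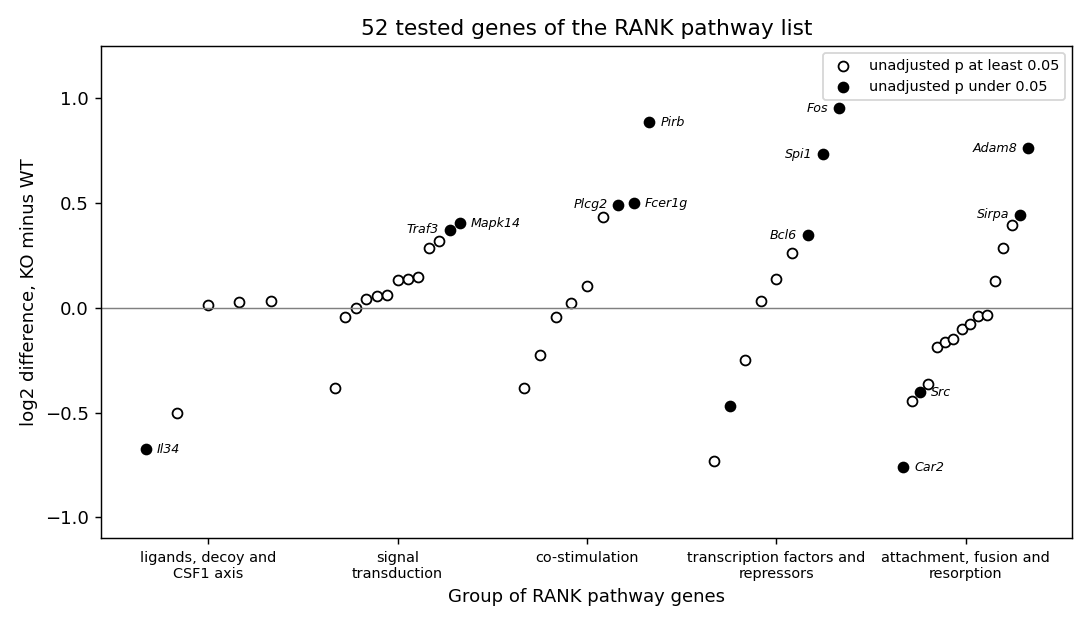
Log2 difference of KO minus WT (y axis) for the 52 tested RANK pathway genes in 5 groups, with 1 circle per gene in order of its value, filled where edgeR's unadjusted p-value was under 0.05 and named for most of these. There are 10 filled circles above 0 and 4 below, and none passed an adjusted p-value of 0.05.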

How the data were processed

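RNA-seq of articular cartilage was performed on 3 KO and 3 WT libraries. Per the labels, strand-specific libraries were made from oligo(dT)-selected mRNA with molecular identifiers in the adapters, and the sample titles gave the groups and replicate numbers. The knocked-out gene and 1 gene of the pathway list are not reported here. The authors deposited a single table with FPKM values, scaled within each library, and estimated counts for 34709 genes. The submitters' processing notes name cutadapt 1.9, HISAT2 2.0.4, UMI-tools, StringTie 1.3.4d, DESeq2 and edgeR, without their roles. The counts were whole numbers whose low values piled up at 4 (6596 values, against 4170 at 3 and 2332 at 5), so a count was not taken to be 1 read pair. Gene positions were those of GRCm38.

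After TMM scaling, the quasi-likelihood test of edgeR (version 4.0.16 under R 4.3.3) was run on the counts of the 15373 genes whose mean over the libraries was 0.5 FPKM or more. Benjamini-Hochberg adjustment was made over all of them, with 0.05 as the threshold. The counts of KO replicates 2 and 3 were averaged and rounded, leaving 5 samples. Standard errors came from the F statistic and the size of the log2 difference. The samples were not treated as paired by replicate number. Deviations of samples with the same number correlated at -0.20, -0.14 and -0.046. These deviations were taken from the mean of their own group and depend on each other, so they cannot exclude a pairing. Alternatives were limma 3.58.1 on log2(FPKM + 1) and log2(FPKM + 0.1), DESeq2 1.42.0, median-of-ratios scaling, no filter, a minimum of 5 FPKM, counts divided by 4, a replicate block, the 6 libraries as labelled, and each library left out. The fit of the 6 libraries without WT replicate 1 was chosen after seeing the data. Of these fits, only that of edgeR on the 5 samples was tested on simulated data.

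The 10 genes, the pathway and marker lists and the tests were chosen with earlier results of these data known. Genes named were the 10, then Tnfsf11, Tnfrsf11b, Csf1, Csf1r, Traf6, the 3 genes of smallest unadjusted p-value in each of the 5 pathway groups, the 5 genes nearest in profile and the 2 highest of each marker list. Any further gene was picked with its value in view. Marker levels are summed FPKM.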

Additional observations from a re-analysis of the deposited data

How the results depend on the processing

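No member of the 10 was called under any alternative. The number of genes called over the whole table depended on the samples entered and on the tool: it was 0 by edgeR on 5 samples (2106 by unadjusted p-value), 570 on the 6 libraries as labelled, 21 without a filter, 9 without KO replicates 2 and 3, and 880 by DESeq2. Leaving out 1 library gave 0 to 352, with 352 without KO replicate 1, where the lone KO sample is assumed to vary like the WT samples. RANK pathway genes called numbered 0, 3 with the 6 libraries, 5 by DESeq2 (Spi1, Adam8, Car2, Fcer1g and Pirb), and 0 to 3 with 1 library left out (Adam8, Plcg2 and Pirb without KO replicate 1). With the replicate block on the 6 libraries, 0 genes were called (2809 at an unadjusted p-value under 0.05), and the median of the 10 genes was -0.68. Nfatc1, at -0.0063, turned to 0.035 with the 6 libraries, 0.056 with the replicate block, 0.0063 with median-of-ratios scaling and with DESeq2, 0.035 without a filter, and 0.25 with the 6 libraries without WT replicate 1, and it ranged from -0.11 to 0.21 with 1 library left out. The median of the 10 ranged from -1.04 to -0.39 with 1 library left out, the latter without WT replicate 1, and was -0.32 with the 6 libraries without it. It was -0.51 and -0.74 on log2(FPKM + 1) and log2(FPKM + 0.1), scales that understate low genes. The other 9 genes kept their sign in all fits. A minimum of 5 FPKM left 5 of the 10. The cause of these changes was not tested. With 2 KO samples the intervals were wide, and every member was above the limit that a count of 0 allows in all libraries.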

Other observations

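Several pathway genes outside the 10 were also high in WT replicate 1. Of the 52 tested, 7 had a level there of at least 1.5 times the mean of WT replicates 2 and 3, as did 8.19% of all tested genes. Picked with their values in view, they were Siglec15, a co-stimulatory lectin receptor (2.17 times), Prdm1, a repressor of osteoclast inhibitors (1.97), Mmp14, a membrane metalloproteinase (1.88), Snx10, a sorting nexin mutated in osteopetrosis (1.70), Csf1 (1.70), Csf1r (1.60) and the integrin chain Itgav (1.53). Tcirg1, at 1.17, and Car2, at 0.937, were below them. By group, 3 of the 7 were genes for attachment, fusion and resorption, 2 were ligands or receptors of the CSF1 axis, 1 was a co-stimulation gene and 1 a transcription factor, and none was a signal transduction gene.

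Among osteoblast and osteocyte genes, also named after their values were seen, Dmp1, a matrix protein of osteocytes, was at 50.7, 23.5 and 22.5 FPKM in KO and 73.2, 33.9 and 32.4 FPKM in WT, and Sp7, the osteoblast factor osterix, at 7.73, 8.66 and 9.08 FPKM in KO and 17.3, 9.93 and 6.47 FPKM in WT. Both were highest in WT replicate 1, the library in which 9 of the 10 osteoclast and RANK axis genes were highest. Bglap, at 326, 221 and 232 FPKM in KO and 576, 731 and 199 FPKM in WT, was instead highest in WT replicate 2. Mepe and Sost, of the same marker list, were highest in KO replicate 1, at 70.48 and 72.96 FPKM. In WT replicate 1 they were at 64.42 and 38.97 FPKM. KO replicate 1 was the lowest library for 8 of the 10 osteoclast and RANK axis genes. Of the 11 osteoblast and osteocyte markers, 7 were highest in WT replicate 1, against 25.1% of all tested genes. Whether these bone genes and the osteoclast genes share a source was not tested.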
